A study of Sus scrofa with 2 samples.

Results

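The nuclei described here carry transcripts of BPIFB3, BPIFB4 and BPIFB6, genes of the bactericidal/permeability-increasing (BPI) fold family, and were taken to be gland-like cells of the pig olfactory mucosa. A nucleus was chosen when it had at least 500 detected genes, unique molecular identifiers (UMIs, 1 per captured transcript) of at least 2 of these 3 genes, and at least 4 such UMIs in all. The rule was met by 69 of 4529 wild type nuclei with 500 or more genes (1.52%, exact Clopper-Pearson 95% interval 1.19 to 1.92%). In the CFTR knockout it was met by 69 of 5305 (1.30%, 1.01 to 1.64%), so the knockout share was 0.854 times the wild type share and the intervals overlapped. The log2 ratio of the shares was -0.23, but 0.33 with every nucleus thinned to 1000 UMIs and 0.22 with only the nuclei of the cluster described below, so it had no stable direction. The 138 chosen nuclei, called BPIFB nuclei here, are 138 of the 10769 barcodes in both tables. They were chosen on UMIs of the 3 genes, so the levels of those genes in them are a description.

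The study sequenced the RNA of single nuclei captured in droplets from the frozen olfactory neuroepithelium of newborn pigs (Sus scrofa). The genotypes were wild type and CFTR knockout, each with 1 library of the same tissue, and the labels do not say which part of CFTR was disrupted. Each value therefore stands for 1 library of 1 genotype, there is no replicate check and no p-value, and the intervals printed cover counting error only. The wild type table held 4715 barcodes with 18731495 UMIs and that of the knockout 6054 barcodes with 16623086 UMIs, and 8 barcode sequences occurred in both. Nuclei with 500 genes had a median of 3123 UMIs in the wild type and 2416 in the knockout. The targeted gene had 86.2 CPM (81.9 to 90.6) in the other wild type nuclei and 12.8 CPM (11.1 to 14.7) in the other knockout nuclei, where CPM is the summed UMIs of a gene in a set of nuclei, scaled to a total of 1000000. Mitochondrial transcripts made up 2.71% of wild type and 1.26% of knockout UMIs.

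BPI fold proteins bind lipids, and several of them are secreted into nasal and oral fluid by surface and gland cells. Some members of the family were first found as transcripts of the olfactory mucosa, and the BPIFB3 and BPIFB6 proteins have been found in the endoplasmic reticulum. In the olfactory mucosa, Bowman's glands below the epithelium secrete the mucus in which odorants dissolve, and CFTR, an anion channel, and AQP5, a water channel, serve fluid secretion in many glands. In RefSeq's pig annotation (Sscrofa11.1) the 3 genes are direct neighbours in the order BPIFB6, BPIFB3 and BPIFB4, between BPIFB2 and BPIFA2.

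Most BPIFB nuclei lay far above the threshold. The summed UMIs of the 3 genes ran from 4 to 182 per wild type nucleus with a median of 40, and from 4 to 92 per knockout nucleus with a median of 23. At least 10 UMIs were found in 61 wild type and 59 knockout nuclei, while 8 and 10 nuclei had 4 to 9. At the edge of the rule, 1 wild type and 4 knockout nuclei had exactly 4 UMIs, and just outside it 3 wild type and 7 knockout nuclei had UMIs of 2 genes that summed to 3. A further 36 wild type and 13 knockout nuclei had 4 or more UMIs of a single gene and stayed out. A median BPIFB nucleus was deeper than a median nucleus of its library, with 5563 UMIs in the wild type and 3131 in the knockout.

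Single UMIs of the 3 genes were also found widely. Of the other nuclei, 8.88% in the wild type and 16.9% in the knockout had at least 1 UMI of any of them. Mature olfactory neurons, which should lack these transcripts, had one in 14 of 163 (wild type) and 6 of 29 (knockout), at median depths of 5620 and 3773 UMIs. With every nucleus thinned to 1000 UMIs, the shares were 3.20% and 7.66% of other nuclei, against 59 of 67 wild type and 62 of 67 knockout BPIFB nuclei deep enough to be thinned. Of the 299 wild type BPIFB3 UMIs outside the BPIFB nuclei, 217 were in 19 nuclei with BPIFB3 alone, and 297 of the 475 BPIFB4 UMIs in 17 nuclei with BPIFB4 alone. The part of free RNA in the remaining UMIs was not tested.

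BPIFB4 was in almost all of the nuclei, largely by the rule, while BPIFB3 and BPIFB6 were mostly in different ones. In the wild type 67 of 69 and in the knockout 68 of 69 had BPIFB4. A nucleus with only 1 of BPIFB3 and BPIFB6 had to have BPIFB4 to be chosen. Of nuclei with BPIFB3 but no BPIFB6, 7 of 20 (wild type) and 6 of 13 (knockout) had a single BPIFB4 UMI. A further 19 and 7 nuclei with 4 or more UMIs of BPIFB3 alone were left out. In the wild type, 43 nuclei had BPIFB6 without BPIFB3 (BPIFB6-type), 20 had BPIFB3 without BPIFB6 (BPIFB3-type) and 6 had both. In the knockout the numbers were 49, 13 and 7. Of the nuclei with both genes, 4 wild type and 2 knockout nuclei had at least 2 UMIs of each, and after thinning to 1000 UMIs both genes were found together in 1 of 67 and 2 of 67. The BPIFB6-type nuclei were the deeper ones, with a median of 7166 against 4500.5 UMIs in the wild type and 3275 against 2791 in the knockout. In the cluster described below this held for the knockout (3099 against 2734 UMIs) but not for the wild type (4145 against 4321 UMIs). BPIFB6-type nuclei had a median of 22 BPIFB6 and 27 BPIFB4 UMIs in the wild type, and 11 and 16 in the knockout. BPIFB3-type nuclei had a median of 11 BPIFB3 and 3 BPIFB4 UMIs in the wild type, and 7 and 2 in the knockout. BPIFB4 stood at 2811 CPM in BPIFB6-type and 1141 CPM in BPIFB3-type nuclei of the wild type, and at 4066 and 1519 CPM in the knockout, so it was lower in the BPIFB3-type nuclei of both libraries.

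**Figure D1:**
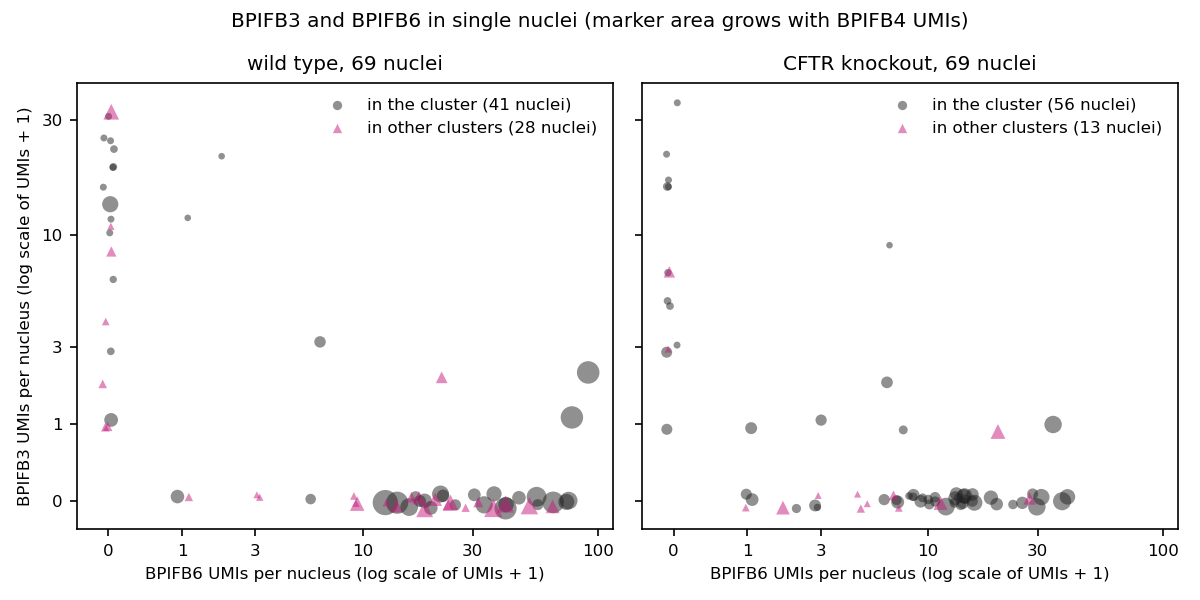
UMIs of BPIFB6 (horizontal) and BPIFB3 (vertical) in each BPIFB nucleus, both on a log scale of UMIs + 1 with slight jitter, by library, with marker area growing with BPIFB4 UMIs and marker shape showing whether the nucleus lies in the cluster that holds most of them. Most nuclei lie along one axis or the other, and 6 wild type and 7 knockout nuclei have UMIs of both genes.

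The labelled markers that the rule did not use, SOX9, ADAMTS18 and AQP5, were then read in the BPIFB nuclei. They were chosen with earlier results of these data known. Their levels therefore describe the nuclei and are no separate check of the gland-like label. SOX9, a transcription factor of gland and duct progenitors, had 40.1 CPM (26.9 to 57.6) in wild type BPIFB nuclei against 4.47 CPM in the other nuclei. In the knockout it had 33.7 CPM (16.2 to 62.0) against 4.39 CPM, from 10 UMIs. ADAMTS18, a secreted metalloprotease, had 484 against 47.4 CPM for wild type and 394 against 19.7 CPM in the knockout. SOX9 and ADAMTS18 were thus above the other nuclei in both libraries. In nuclei with 4 or more UMIs of SLC6A11 (SLC6A11 nuclei), SOX9 had 65.3 CPM (38.1 to 105) in the wild type. In those of the knockout it had 52.1 CPM (21.0 to 107), so SOX9 did not set the BPIFB nuclei apart from them. AQP5 had 70.6 CPM (52.5 to 92.8) against 36.4 CPM in the wild type, but 16.8 CPM (5.47 to 39.3) against 16.3 CPM in the knockout, from 5 UMIs in 4 nuclei. Wild type sustentacular nuclei had 90.0 CPM (78.1 to 103) of AQP5 and SLC6A11 nuclei 73.0 CPM, so AQP5 did not set the BPIFB nuclei apart from these kinds. Of 19 genes of secreted gland products in the tables, 7 reached 20 UMIs in the BPIFB nuclei of both libraries together, and none of those was at least 2-fold higher than in the other nuclei in both libraries (2.21% of all 7998 genes with 20 UMIs were). In the wild type 8 and in the knockout 7 of the secreted products had no UMI in them. LYZ and LTF, usual secreted proteins of serous glands, had 1 UMI each over both libraries.

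The BPIFB nuclei also gathered by genes that the rule did not use. When all nuclei with 500 genes were clustered without any BPI fold gene and without CFTR, 1 of 23 clusters held 41 of 69 wild type BPIFB nuclei (59.4%, 46.9 to 71.1%) and 56 of 69 knockout ones (81.2%, 69.9 to 89.6%). That cluster was small, with 73 wild type and 80 knockout nuclei, or 1.61% and 1.51% of all. Of its nuclei, 61 and 64 had at least 4 UMIs of the 3 genes, which counts nuclei with a single gene as well. Both patterns were in it, with 23 BPIFB6-type and 13 BPIFB3-type nuclei of the wild type and 39 and 11 of the knockout. Nuclei with 4 or more UMIs of BPIFB3 alone lay there in 13 of 19 wild type and 7 of 7 knockout cases, although the rule leaves them out. Those with BPIFB4 alone lay there in only 7 of 17 and 1 of 5 cases. Another 5 and 4 of them lay in the cluster that held most SLC6A11 nuclei.

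The nuclei of that cluster that missed the rule, 32 in the wild type and 24 in the knockout, carried its other genes too. Their ADAMTS18 level was 2197 CPM for wild type and 737 CPM in the knockout, against 967 and 559 CPM in the BPIFB nuclei of the cluster. FGFR2, a fibroblast growth factor receptor of epithelia, stood at 1441 and 1021 CPM in them, against 1225 and 899 CPM. SLC39A8, a zinc and manganese importer, was lower in them, with 457 and 340.3 CPM against 1562 and 2895 CPM.

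BPIFB nuclei outside the cluster were deeper and more mixed. Their median depth was 11319.5 UMIs in the wild type and 5247 in the knockout, against 4321 and 2924 UMIs for those inside it. CPM is taken over summed UMIs, so deep nuclei weigh more in the levels over all BPIFB nuclei. The deepest wild type ones, both outside the cluster, held 99236 and 71341 of the 722756 UMIs of all wild type BPIFB nuclei. The deepest knockout ones, also outside it, held 29459 and 26809 of 296795 UMIs. In the wild type, 18 of them lay in a cluster with a median of 8754.5 UMIs, in which 44.5% of nuclei had been marked as likely doublets (droplets with more than 1 nucleus), while none of the nuclei in the main cluster was marked. Genes of ciliated cells summed to 2683 CPM in the knockout BPIFB nuclei outside the cluster and to 159 CPM in those inside it. Genes of immature neurons summed to 1141 CPM outside and 219 CPM inside in the wild type, and to 184 and 247 CPM in the knockout. Sustentacular genes summed to 2416 and 866 CPM in the wild type. Values of the BPIFB nuclei inside the cluster are therefore given beside those of all 138 for some results below. Levels of single leading genes, list genes, comparison kinds and the BPIFB6-type and BPIFB3-type nuclei are over all chosen nuclei unless the cluster is named. The part that mixed droplets have in any result was not tested.

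Markers of other cell types in the BPIFB nuclei were mostly at or below the level of the other nuclei. The summed level of 5 tuft cell genes was 6.92 CPM for wild type and 10.1 CPM in the knockout, and 0 inside the cluster in both. Macrophage and immune genes summed to 33.2 and 43.8 CPM, against 159.7 and 148 CPM in the other nuclei. The 6 respiratory secretory genes summed to 231 CPM against 216 CPM in the wild type, and to 903 against 1223 CPM in the knockout. The 8 ciliated cell genes summed to 475 against 835 CPM and to 1132 against 2008 CPM. Of the defining genes, SCGB1A1 of airway secretory cells, DNAI1 of ciliated cells, TRPM5 of tuft cells and NEUROG1 of neuronal precursors had no UMI in the BPIFB nuclei of either library, while other genes of those lists were present. Pericyte and smooth muscle genes were above the other nuclei in both libraries, with 498 and 994 CPM against 199 and 213 CPM, and RGS5 alone gave 415 and 899.6 CPM of those sums. Microvillar or ionocyte genes were also above in the wild type alone, at 416 against 344 CPM, and CFTR gave 109 CPM of that 416. Bowman gland genes were above in the wild type, at 203 against 108 CPM. In the knockout they were near the other nuclei, at 87.6 CPM (57.2 to 128) against 81.2 CPM. The part of other cells in these sums was not tested.

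Beyond the 3 genes that chose them, the BPIFB nuclei had a set of genes well above the other nuclei in both libraries. Levels were compared within each library with 20 CPM added to both sides, which damps genes with few counts. Of 7998 genes with at least 20 UMIs in the BPIFB nuclei, 38 (0.475%) were at least 4-fold higher in both libraries, and 4 of these had no symbol. SLC39A8 led, at 671 CPM (613 to 734) against 17.3 CPM for wild type and 1904 CPM (1749.9 to 2067) against 32.8 CPM in the knockout. At least 1 UMI of it was in 53 of 69 BPIFB nuclei (wild type) and 59 of 69 (knockout), against 3 of 163 and 1 of 29 mature neurons. GPR155, a cholesterol sensor of the lysosome, had 1648 CPM (1556 to 1744) against 89.2 CPM and 2362 CPM (2190.3 to 2543) against 97.1 CPM. LCN15, a lipocalin and so another carrier of small lipophilic molecules, had 2626 CPM (2509 to 2747) against 102 CPM and 2601 CPM (2421 to 2791) against 201 CPM. LCN15 was found in 66 of 69 and 68 of 69 BPIFB nuclei, but also in 40 of 163 and 16 of 29 mature neurons. Thinned to 1000 UMIs, those were 56 of 67 and 55 of 67 against 11 of 163 and 3 of 27.

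Secreted proteins and enzymes were among the other leading genes. ANG, a secreted ribonuclease, had 830.2 against 66.2 CPM (wild type) and 1219.7 against 103 CPM (knockout). GAS6, a secreted ligand of TAM receptors, had 155 against 9.22 CPM (wild type) and 269.5 against 9.86 CPM (knockout). PRSS33, a serine protease, had 235 against 16.3 CPM (wild type) and 182 against 21.2 CPM (knockout). All of these were above the other nuclei in both libraries by at least 4-fold on the scale with 20 CPM added. SULT1E1, which sulfates estrogens, had 1638 against 214 CPM (wild type) and 1529.7 against 218 CPM (knockout). GPX6, a glutathione peroxidase of the olfactory mucosa, had 672 against 109 CPM (wild type) and 1105 against 67.9 CPM (knockout). PGGHG, which trims the glucosylgalactose of collagen, had 345 against 14.5 CPM (wild type) and 401 against 7.72 CPM (knockout). The other nuclei of both libraries also held SULT1E1, at above 200 CPM.

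A second group of leading genes codes for receptors, adhesion proteins and membrane proteins. LRP8, a receptor of apolipoprotein E and reelin, had 472 against 48.1 CPM (wild type) and 512 against 37.0 CPM (knockout). ITGB6, an integrin subunit of epithelia, had 185 against 11.0 CPM (wild type) and 286 against 7.66 CPM (knockout). IL20RA, a receptor chain for interleukins of the IL-10 family, had 145 against 10.1 CPM (wild type) and 249 against 9.61 CPM (knockout). Each of these was low over the other nuclei as a whole. FGFR2 had 582 against 91.2 CPM (wild type) and 637 against 99.3 CPM (knockout). CLDN10, a claudin of tight junctions, had 126 against 8.61 CPM (wild type) and 152 against 13.1 CPM (knockout), from 45 UMIs in the knockout. ATP8A1, a flippase that moves phospholipids across membranes, had 827 against 139.7 CPM (wild type) and 2449.5 against 104 CPM (knockout). ATP8A1 stood higher in the knockout BPIFB nuclei, a difference taken up below.

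The remaining leading genes included RGS5, a regulator of G protein signalling that is commonly used to mark pericytes, with 415 against 26.8 CPM (wild type) and 899.6 against 23.0 CPM (knockout). TMEM132D, a transmembrane protein, had 430.3 against 13.3 CPM (wild type) and 566 against 18.1 CPM (knockout). CATSPERB, known as a subunit of the sperm calcium channel, had 174 against 9.45 CPM (wild type) and 263 against 7.28 CPM (knockout). These genes are not usually listed for glands. PICK1, a membrane-curving protein of vesicle traffic, had 1076 against 133 CPM (wild type) and 1361 against 119.6 CPM (knockout). SIAH3, a relative of the SIAH ubiquitin ligases, had 229.7 against 2.96 CPM (wild type) and 283 against 2.26 CPM (knockout). TC2N, FAM46C, MYO10 and CPEB2 completed the 25 genes with the highest rank and a symbol. Of the genes with no symbol, ENSSSCG00000010718 had 700.1 against 36.9 CPM for wild type and 815 against 27.1 CPM in the knockout, and ENSSSCG00000000659 had 1404 against 119 CPM and 3770.3 against 46.5 CPM.

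**Figure D2:**
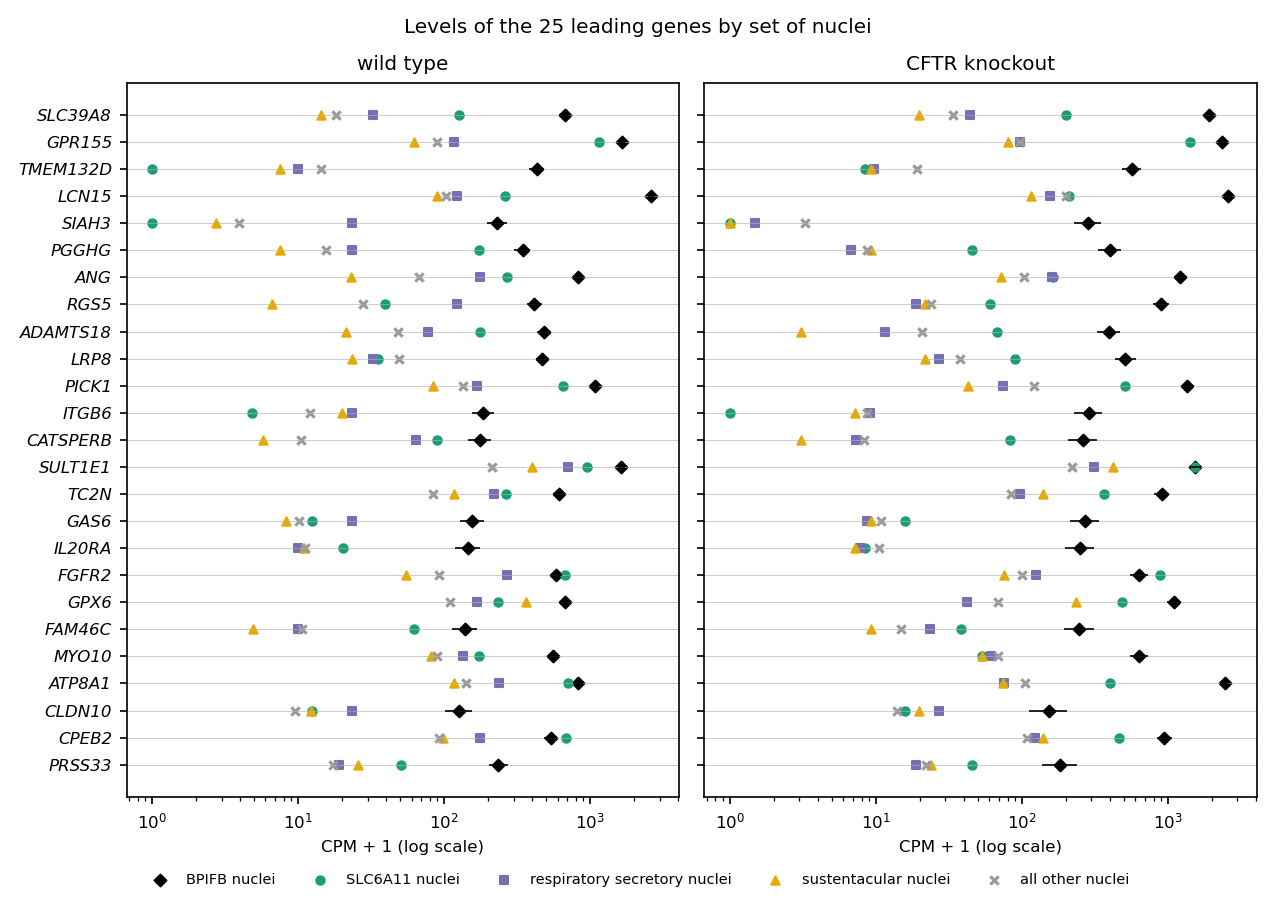
Level (CPM + 1, log axis) of the 25 leading genes in BPIFB nuclei (with exact 95% counting intervals), in SLC6A11, respiratory secretory and sustentacular nuclei and in all other nuclei of each library. Every gene is higher in the BPIFB nuclei than in all other nuclei, while SLC6A11 nuclei come within 2-fold of them for GPR155, SULT1E1 and FGFR2.

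The leading genes were higher in the BPIFB nuclei inside the cluster than in those outside it. Inside the cluster, 96 of 4584 genes (2.09%) were at least 4-fold above the other nuclei in both libraries. Of the leading genes, 25 of 25 were at least 4-fold above the other nuclei in both libraries, with a median of 13.6-fold in the wild type and 14.4-fold in the knockout. Outside it, 25 of 25 in the wild type and 23 of 25 in the knockout were still at least 2-fold higher, and 11 and 12 at least 4-fold, with medians of 3.44-fold and 3.94-fold. Of all 7998 genes, 0.763% and 2.31% were at least 2-fold higher there. The cluster was built on these genes among others, and the 25 were chosen over all 138 nuclei, so neither set of values is separate support for them.

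Few genes were low in the BPIFB nuclei, with 21 of 7998 (0.263%) at least 2-fold below the other nuclei in both libraries. The lowest was FAT4, a giant cadherin, with 33.2 against 113 CPM for wild type and 30.3 against 105 CPM in the knockout. NRP1, a receptor of semaphorins and vascular endothelial growth factor, had 107 against 244 CPM and 77.5 against 253 CPM. COL11A1, a collagen chain of cartilage, had 51.2 against 147 CPM and 23.6 against 78.0 CPM. Since a gene needed 20 UMIs in the BPIFB nuclei to be compared, genes that are scarce in them are under-counted here.

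The 15 gene lists fixed for this work, on functions of glands and epithelia, were then read in the BPIFB nuclei, against 2.21% of all genes that were at least 2-fold higher in both libraries. Of 17 fluid and ion transport genes with 20 UMIs, 2 were. They were both of the SLC26 family of anion transporters. SLC26A4 (pendrin), an exchanger of chloride, bicarbonate and iodide, had 37.4 against 2.40 CPM (wild type) and 80.9 against 2.89 CPM (knockout). SLC26A9, a chloride transporter of airway epithelium, had 44.3 against 3.13 CPM (wild type) and 37.1 against 2.07 CPM (knockout), from 11 UMIs in the knockout. Levels of both were low in the other nuclei of both libraries.

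In the secretory pathway list, 4 of 22 genes were at least 2-fold higher. HSPA5, the main chaperone of the endoplasmic reticulum, had 295 against 115 CPM (wild type) and 239 against 95.9 CPM (knockout). CREB3L2, a membrane-bound transcription factor that raises secretory capacity, had 398 against 164 CPM (wild type) and 404 against 139 CPM (knockout). SEC24D, a coat subunit of vesicles leaving the endoplasmic reticulum, had 322 against 134 CPM (wild type) and 569 against 117 CPM (knockout). HERPUD1, a component of endoplasmic reticulum-associated degradation, was the other one. Of the gland development list, 6 of 22 genes were higher by the same measure: SOX9, FGFR2, ETV4, BMP7, GRHL1 and GRHL2. ETV4, a transcription factor downstream of fibroblast growth factor receptors, had 88.5 against 14.1 CPM (wild type) and 142 against 6.47 CPM (knockout). BMP7, a secreted growth factor, had 91.3 against 14.5 CPM (wild type) and 128 against 20.8 CPM (knockout). GRHL1 and GRHL2 are grainyhead-like regulators of epithelial identity, and GRHL2 had 475 against 166 CPM (wild type) and 492 against 199.8 CPM (knockout).

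Among adhesion and polarity genes, 3 of 20 were higher, namely CLDN10, ITGA6 and ITGB6. Among proteases and matrix genes, 3 of 20 were: ADAMTS18, FREM2 and NPNT. FREM2 and NPNT are both proteins of the epithelial basement membrane, and NPNT had 342 against 69.7 CPM (wild type) and 273 against 55.2 CPM (knockout). In the Wnt, Hedgehog and Notch list, 2 of 16 were higher, the Wnt inhibitor DKK2 and the Notch target HEY1. DKK2 had 213 against 42.9 CPM (wild type) and 192 against 32.0 CPM (knockout). No gene of the lists of secretory stimulus receptors, interferon response, inflammatory mediators, proliferation, stress response or mitochondrial transcripts was 2-fold higher in both libraries, and GPX6 was the 1 gene of 13 in the xenobiotic metabolism list that was.

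Nuclei with 4 or more UMIs of SLC6A11, 49 in the wild type and 40 in the knockout, were set beforehand as a gland-like kind to compare. Whether they were the kind most like the BPIFB nuclei was not measured. A further 4 and 1 nuclei that met this rule were BPIFB nuclei, and they were left out of these sets. In the clustering they lay elsewhere, with 37 of 49 and 36 of 40 together in another cluster. GPR155 was at 1161 and 1429 CPM in them, against 1648 and 2362 CPM in the BPIFB nuclei. FGFR2 was at 669 and 878 CPM in them, a little above the BPIFB nuclei in both libraries. SULT1E1 was at 949 and 1526 CPM, against 1638 and 1529.7 CPM. These genes were thus held in common. Over all BPIFB nuclei, LCN15, SLC39A8 and ADAMTS18 set the 2 kinds of nuclei apart, with LCN15 at 261 and 208 CPM in the SLC6A11 nuclei. SLC39A8 was there at 127 and 201 CPM, and ADAMTS18 at 177 (129 to 236) and 67.0 CPM (30.6 to 127). In BPIFB6-type nuclei alone, ADAMTS18 had 212 CPM (173 to 256) in the wild type, so these intervals overlapped. In the knockout ones it had 284 CPM (219 to 362), above the SLC6A11 nuclei. SLC6A11 itself had 69.2 CPM in wild type BPIFB nuclei, from 50 UMIs in 7 nuclei, and 16.8 CPM in knockout ones.

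Set against each of 4 comparison kinds (SLC6A11, respiratory secretory, sustentacular and mature neuron nuclei), 15 of the 25 leading genes were at least 2-fold higher in the BPIFB nuclei in both libraries. TMEM132D was the most separate of them, at 9.01 CPM in the wild type comparison kind where it was highest and 17.6 CPM in the knockout. FGFR2 was above the BPIFB nuclei in SLC6A11 nuclei of both libraries, as given above. CPEB2, which regulates translation, was at 680.2 CPM in SLC6A11 nuclei against 537 CPM in the wild type, and at 462 against 947 CPM in the knockout. This count speaks only of these 4 kinds, and other nuclei may hold the same genes. The 25 were chosen for being above all other nuclei, which include these kinds, so the count is no separate support for them. The same share over all genes was not counted.

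The BPIFB6-type and BPIFB3-type nuclei also differed in genes that did not define them. In all chosen nuclei, 90 of 7632 genes with 20 UMIs in the 2 patterns (1.18%) were at least 2-fold higher in BPIFB6-type nuclei in both libraries and 45 (0.59%) in BPIFB3-type nuclei. When the difference had to hold in the cluster as well, and over the other nuclei, 13 (0.32%) and 30 (0.739%) of 4060 genes were left, and the genes named here, chosen after their values were seen, come from those. The BPIFB3-type levels rest on 13 knockout and 20 wild type nuclei. ENSSSCG00000000659 had the widest difference inside the cluster. Over all chosen nuclei it was at 1909 CPM in BPIFB6-type against 325 CPM in BPIFB3-type nuclei of the wild type. In the knockout it was at 4709 CPM, and no UMI of it was found in BPIFB3-type nuclei. It had a UMI in 22 of 43 and 27 of 49 BPIFB6-type nuclei, against 2 of 20 and 0 of 13 BPIFB3-type nuclei.

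SLC39A8 was higher in the BPIFB6-type nuclei, at 774 against 290.5 CPM (wild type) and 2150.5 against 431 CPM (knockout). LCN15 followed the same direction, at 3051 against 1328 CPM (wild type) and 2749 against 1338 CPM (knockout). ITGB6 was at 158 against 41.5 CPM (wild type) and 270.5 against 113 CPM (knockout). For these leading genes the BPIFB3-type nuclei were the lower ones in each library. ESRRG, an orphan nuclear receptor that regulates energy metabolism and ion transport genes, was at 313 against 89.9 CPM (wild type) and 523 against 68.0 CPM (knockout). A2M, a broad protease inhibitor, was at 96.9 CPM for wild type and 146 CPM in the knockout, with no UMI in BPIFB3-type nuclei of either. BMP5, a secreted growth factor, was at 257 against 111 CPM (wild type) and 244 against 68.0 CPM (knockout). PAPSS2, which makes the sulfate donor that sulfotransferases use, was at 392 against 138 CPM (wild type) and 439 against 159 CPM (knockout). KCNAB1, a potassium channel beta subunit, LMCD1, RNF13, SMAD7 and MORC1 were the others with a symbol. Levels in the BPIFB6-type nuclei inside the cluster could be much higher than these. SLC39A8 was there at 2256 against 529 CPM (wild type) and 3449 against 612 CPM (knockout). LCN15 was there at 7470 against 1852 CPM (wild type) and 3691 against 1564 CPM (knockout).

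BPIFB3-type nuclei were higher in a longer set. PTGDS, a lipocalin that makes prostaglandin D, was at 290.5 CPM in BPIFB3-type against 29.7 CPM in BPIFB6-type nuclei of the wild type, and at 771 against 39.9 CPM in the knockout. MEIS1, a homeobox transcription factor, was at 1058 against 196 CPM and 1021 against 226 CPM. ADAMTS18 was at 1356 against 212 CPM and 975 against 284 CPM. ADAMTS18, used to label the nuclei as gland-like, was thus higher in the BPIFB3-type, but BPIFB6-type nuclei also stood above the 47.4 and 19.7 CPM of the other nuclei. FGFR2 was at 1238 against 382 CPM and 1315 against 523 CPM. MAPT, the microtubule protein tau, was at 359.6 against 115 CPM and 1179 against 142 CPM. TAC4, a tachykinin precursor, was at 387 against 33.6 CPM and 272 against 115 CPM, from 12 UMIs in the knockout BPIFB3-type nuclei. HSD11B1, which regenerates active glucocorticoid, DAPK1, GRIK4, CDCP1, MDGA2 and ANO1, a calcium-activated chloride channel, moved the same way, ANO1 from 11 and 6 UMIs in the BPIFB3-type nuclei.

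Of the 25 leading genes, 7 had a higher level in BPIFB6-type nuclei in both libraries and 13 in BPIFB3-type nuclei, by any margin. The same split over all genes was not counted, so these numbers only describe the 25. By at least 2-fold in both libraries, SLC39A8, LCN15 and ITGB6 were higher in the BPIFB6-type, and TMEM132D, PGGHG, RGS5, ADAMTS18 and FGFR2 in the BPIFB3-type. GPR155, ANG, PICK1, GPX6 and ATP8A1 were within 2-fold of each other in the 2 patterns of each library.

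**Figure D3:**
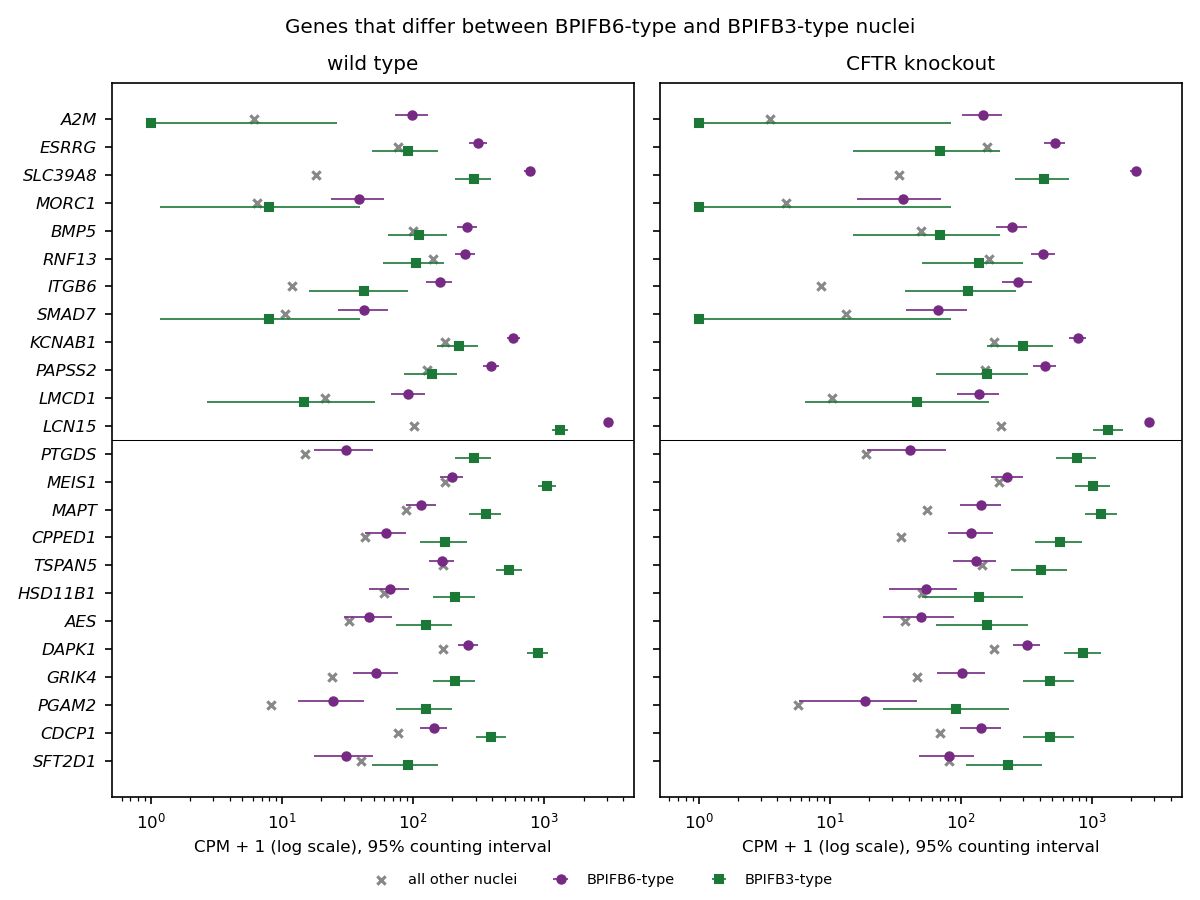
Level (CPM + 1, log axis, with exact 95% counting intervals) in BPIFB6-type and BPIFB3-type nuclei and, as crosses, in all other nuclei, for 12 genes with a symbol per direction. SLC39A8, LCN15 and ITGB6 above the line lie higher in BPIFB6-type nuclei, and PTGDS and MEIS1 below the line in BPIFB3-type nuclei, in both libraries.

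CFTR, the gene the study targeted, was present in some wild type BPIFB nuclei and near 0 in the knockout ones. It had 109 CPM (86.5 to 136) in the wild type, from 79 UMIs, and 13.5 CPM (3.67 to 34.5) in the knockout, from 4 UMIs in 4 nuclei. The log2 ratio of knockout to wild type was -3.02 (-4.93 to -1.61), against -2.75 in the other nuclei. Inside the cluster, 45 wild type UMIs stood against 1 knockout UMI (-5.17). In the wild type, 26 of 69 BPIFB nuclei had a CFTR UMI, and 4 nuclei with 15, 14, 9 and 7 UMIs held 57.0% of them. With nuclei thinned to 1000 UMIs, CFTR was found in 4 of 67 wild type BPIFB nuclei, or 5.97% (1.65 to 14.6%), and in 4.98% of the other nuclei. Among thinned wild type mature neurons, 3 of 163 had it, or 1.84% (0.381 to 5.28%), an interval that overlaps that of the BPIFB nuclei.

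CFTR over all wild type BPIFB nuclei was at 109 against 86.2 CPM in the other nuclei, whose interval (81.9 to 90.6) overlaps. Inside the cluster it was at 197 CPM (144 to 263), above the other nuclei, and in the BPIFB nuclei outside it at 68.8 CPM (47.6 to 96.1). The wild type level was 480.3 CPM (399.8 to 572) in SLC6A11 nuclei, above the interval of the BPIFB nuclei, and 252 CPM in respiratory secretory nuclei. Among BPIFB nuclei it was 83.1 CPM (59.9 to 112) in the BPIFB6-type and 152 CPM (95.4 to 230.4) in the BPIFB3-type, with overlapping intervals. Wild type nuclei with BPIFB3 alone had 291 CPM (196 to 415) and those with BPIFB4 alone 342 CPM (247 to 461), from 19 and 17 nuclei. In the knockout the BPIFB3-type nuclei and both single-gene sets had no CFTR UMI. AQP5 was also lower in the knockout, going from 70.6 to 16.8 CPM, with a log2 ratio of -2.07 (-3.75 to -0.75). Inside the cluster it was 123 against 27.4 CPM, and in the other nuclei of the 2 libraries the log2 ratio was -1.16. A UMI of AQP5 was found in 31 of 69 wild type and 4 of 69 knockout BPIFB nuclei, against 7 of 163 and 2 of 29 mature neurons. SLC6A11 nuclei had AQP5 at 73.0 CPM (44.0 to 114) in the wild type and 67.0 CPM (30.6 to 127) in the knockout, with overlapping intervals.

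**Figure D4:**
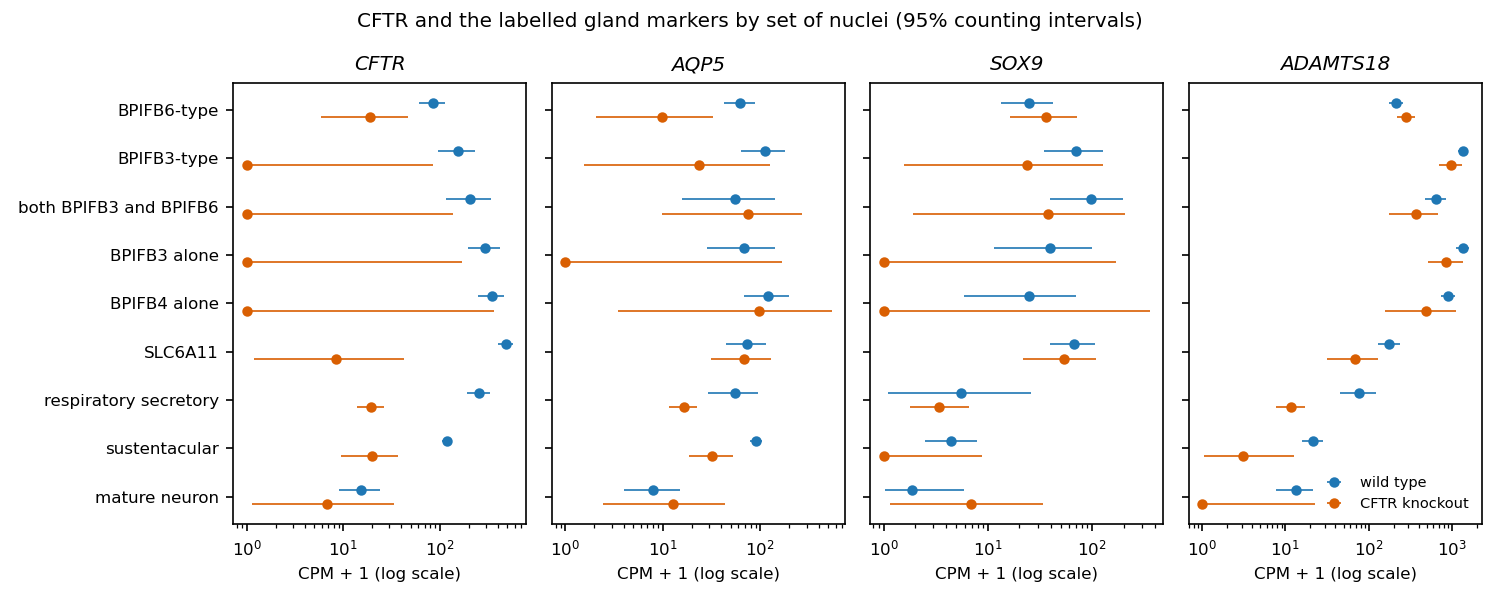
Level (CPM + 1, log axis) of CFTR, AQP5, SOX9 and ADAMTS18 in BPIFB6-type and BPIFB3-type nuclei, nuclei with both or with a single gene, and the comparison kinds, by library, with exact 95% counting intervals. CFTR is at 480.3 CPM in wild type SLC6A11 nuclei, above the BPIFB6-type and BPIFB3-type nuclei, and near 0 across the knockout sets, while ADAMTS18 is highest in BPIFB3-type nuclei and in those with BPIFB3 alone or BPIFB4 alone.

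Across all genes, the BPIFB nuclei of the 2 libraries differed at 1414 of 7998 genes by at least 2-fold (17.7%), with 608 (7.6%) higher and 806 (10.1%) lower in the knockout. In the other nuclei, with 16184 genes at 20 UMIs, 1097 (6.78%) were higher and 488 (3.02%) lower. For the BPIFB nuclei inside the cluster, 309 (6.74%) of 4584 genes were higher and 286 (6.24%) lower. Of the 608 and 806 genes, 262 and 196 had 20 UMIs inside the cluster, and there 124 and 102 were still past 2-fold in the same direction while 1 and 32 were on the opposite side of 0.

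The lowest ratios of knockout to wild type over all BPIFB nuclei were of genes that were scarce inside the cluster. DACH1, a transcription cofactor, went from 414 to 16.8 CPM and EBF1, a transcription factor of olfactory neurons, from 1094 to 135 CPM. CNTN4, a neuronal adhesion protein, went from 1321 to 131 CPM, and THSD7B, PURG and NOL4 were lower by a log2 ratio of -3.58, -3.75 and -3.35. Inside the cluster these genes had at most 12 UMIs in either library. BRINP2, TMPRSS6 and ADD2 had 70, 59 and 55 wild type UMIs and none in the knockout. The wild type BPIFB nuclei outside the cluster were the ones with the high immature neuron level given above, and their part in these differences was not tested beyond leaving them out.

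The highest ratios were of transcripts that were also higher in the other nuclei of the knockout library. BPIFA1, a BPI fold protein of airway surface fluid, went from 15.2 to 425 CPM, with a log2 ratio of 4.80 (3.91 to 5.84) against 4.34 in the other nuclei. It had a UMI in 42 of 69 knockout BPIFB nuclei and in 19 of 29 knockout mature neurons, at median depths of 3131 and 3773 UMIs, so its share was not above that background. TFF3, a trefoil peptide of mucous cells, had a log2 ratio of 2.85 against 2.41. WDR49, SNTN, TMEM212, KIAA2012 and NWD2 were among the 10 genes with the highest ratios, and these 5 had 0 or 1 wild type UMI and at most 12 knockout UMIs inside the cluster. SERPINB11 had no UMI in the wild type and 23 in the knockout. CETN2, a centrin of centrioles, went from 6.92 to 135 CPM and stayed higher inside the cluster, at 4.38 against 143 CPM.

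**Figure D5:**
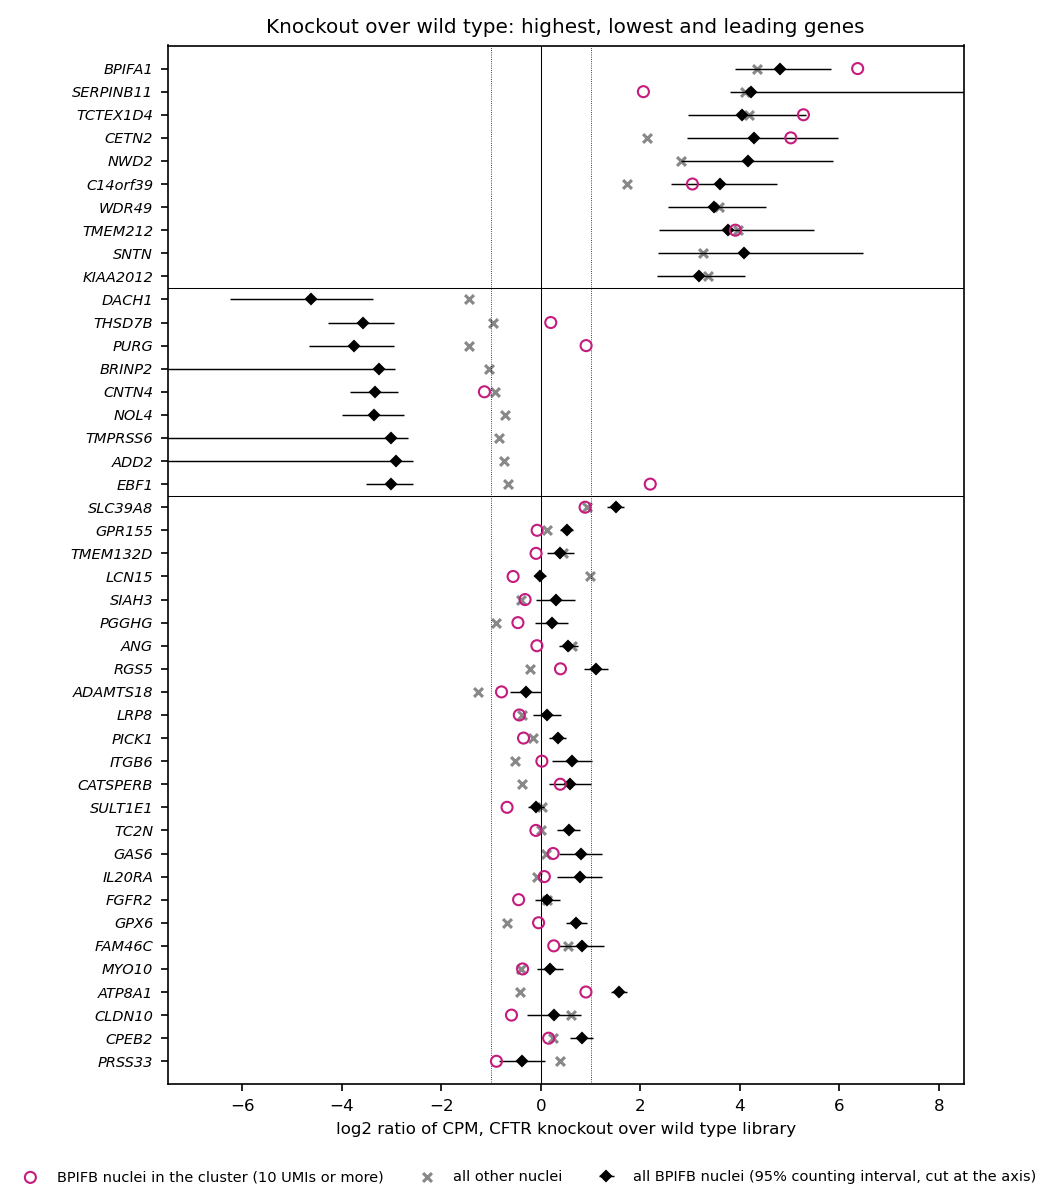
Log2 ratio of CPM, knockout over wild type, for the 10 highest, 9 of the 10 lowest and the 25 leading genes in all BPIFB nuclei (diamonds, exact 95% counting intervals; a library at 0 is set to 3 counts), in those inside the cluster (circles, 10 UMIs or more) and in all other nuclei (crosses). The leading genes lie on both sides of 0 inside the cluster, from -0.89 to 0.91, and BPIFA1 lies far above 0 in the other nuclei as well.

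Inside the cluster some differences stood out against the other nuclei. GLIPR1, a secreted pathogenesis-related protein, went from 363 to 21.9 CPM, with a log2 ratio of -4.05 against -1.04 in the other nuclei. GPM6A, a membrane glycoprotein, went from 779 to 121 CPM (-2.69 against -0.83). LDB2, a cofactor of LIM-domain transcription factors, went from 324 to 43.9 CPM (-2.88 against 0.38). These were lower in the knockout by more than the same genes in the rest of the libraries. AXIN2, a feedback target of Wnt signalling, was higher in the knockout, from 35.0 to 186 CPM, with a log2 ratio of 2.41 against 0.26. TCF7, another Wnt target and effector, had 1.99 inside the cluster against 0.63 outside the BPIFB nuclei. Of 8 genes of the Wnt, Hedgehog and Notch list with 20 UMIs inside the cluster, 5 were above 0 and 3 below, with a median of 0.33. Over all BPIFB nuclei, 7 were above and 9 below 0, with a median of -0.13. LGR5, a receptor that marks Wnt-responsive progenitors, went from 127 to 47.2 CPM over all BPIFB nuclei, where AXIN2 had a log2 ratio of 2.18. CGA, the alpha subunit of glycoprotein hormones, had 25 UMIs inside the cluster in the wild type and none in the knockout.

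The leading genes differed little between the libraries as a median inside the cluster, with single genes going both ways. Over all BPIFB nuclei, 21 of 25 were above 0 in the log2 ratio, 15 with the whole interval above 0, and the median was 0.52, against 0.10 over all genes. Inside the cluster the median was -0.10, against 0.06 over all genes tested there. The 25 ran there from -0.89 for PRSS33 to 0.91 for ATP8A1, with 9 intervals wholly below 0 and 3 wholly above. The shares of all genes with such intervals were not counted. Only SLC39A8, RGS5 and ATP8A1 were past 2-fold over all BPIFB nuclei, with log2 ratios of 1.50, 1.12 and 1.57. Inside the cluster they were at 0.89, 0.40 and 0.91, all under 2-fold. The higher share of knockout BPIFB nuclei inside the cluster stands beside this difference, and its part was not tested separately. The genes of the rule, given as a description, were at -0.44 for BPIFB3, -0.052 for BPIFB4 and -0.26 for BPIFB6 inside the cluster.

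Counts of list genes past 2-fold stand beside 7.6% higher and 10.1% lower over all genes. Counts of list genes above and below 0 stand beside a median over all genes of 0.10, and of 0.06 inside the cluster. The share of all genes above 0 was not counted. Of the lists with more than 2 genes at 20 UMIs, mitochondrial transcripts had the median farthest from 0. The BPI fold list, without the rule genes, had 2 such genes, BPIFA1 among them, and a median of 3.27. Of 13 mitochondrial transcripts, 12 were below 0 and 9 past 2-fold lower in the knockout, and the list median was -1.14, or -1.01 inside the cluster. Mitochondrial UMIs were fewer in the whole knockout library, at 1.13% of UMIs in BPIFB nuclei against 2.39% in the wild type. Secretory pathway genes had a median of 0.47 with 18 of 22 above 0, but inside the cluster 9 of 22 were above 0 and the median was -0.12. SEC23B and SSR1, parts of vesicle coats and of the translocon, were past 2-fold higher over all BPIFB nuclei, with log2 ratios of 1.31 and 1.41. RAB27B, a GTPase of regulated exocytosis, was lower (-1.64, from 38 and 5 UMIs). The list as a whole therefore had no common direction inside the cluster.

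Fluid and ion transport genes were split, with 7 above and 10 below 0 and a median of -0.13. CFTR, AQP5 and SLC9A2, a sodium-proton exchanger, were past 2-fold lower, SLC9A2 from 59.5 to 23.6 CPM on 7 knockout UMIs. SLC26A4 and SLC4A7, a sodium-bicarbonate cotransporter, were past 2-fold higher. These 3 and 2 of 17 genes are near the shares over all genes. SLC4A7 went from 285 to 586 CPM, with a log2 ratio of 1.04 (0.74 to 1.34), 1.12 inside the cluster and 0.29 in the other nuclei. SLC26A4 had 1.11 (0.26 to 1.96) but 0.33 inside the cluster. SLC4A7 was thus past 2-fold by both counts and SLC26A4 by 1 of them.

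Interferon response genes were above 0 in 10 of 11 cases with a median of 0.73, and inflammatory mediators in 6 of 7 with a median of 0.73. Most of them had few UMIs, and inside the cluster only 2 and 3 of these genes reached 20, with medians of -0.17 and 0.062. The summed interferon genes were also higher in the other nuclei of the knockout, at 988 against 506 CPM. Gland development genes were evenly split, 11 above and 11 below 0, and inside the cluster 13 of 16 were below 0 with a median of -0.38. Proteases and matrix genes were below 0 in 14 of 20 cases, with ADAMTS17, a secreted metalloprotease, going the other way from 261 to 556 CPM. Its log2 ratio was 1.09, 1.05 inside the cluster and -0.29 in the other nuclei. The xenobiotic metabolism list was split, with 7 genes above and 6 below 0 and a median of 0.24 (-0.13 inside the cluster). Past 2-fold, 2 of its 13 genes were higher and 4 lower in the knockout. CYP2A19 and CYP2F1, cytochrome P450 enzymes abundant in sustentacular cells, were among the lower ones. CYP2F1 went from 203 to 23.6 CPM, with a log2 ratio of -2.24 in the other nuclei. The summed sustentacular markers moved with both enzymes, from 1926 to 815 CPM in BPIFB nuclei and from 1952 to 1059 CPM in other nuclei. Their part in this was not tested.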

How the data were processed

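The authors deposited 1 table of raw counts per library (whole-number UMI counts for 25880 genes, not normalized), per the file headers and values. Nuclei came from frozen, sectioned tissue in a citric acid buffer and were captured with 10x Genomics chemistry, per the labels' protocols. Cell Ranger, R 4.0.2 and Seurat 4.0 are the tools in the submitters' processing notes. Not given in the sources used here: aligner, genome build, annotation, strand setting and the counted part of each transcript. A gene that overlaps another may therefore share its reads. For 1029 of 8256 genes with only an Ensembl identifier, a gene name table held a symbol.

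Python 3.11.15 with scanpy 1.11.5, numpy 2.4.6 and scipy 1.17.1 was used. UMIs were summed over a set of nuclei and divided by the set's total (CPM), with exact Poisson, Clopper-Pearson and conditional binomial 95% intervals. Genes had to have 20 UMIs in the set, 20 CPM was added to ratios against other nuclei, and a library at 0 was set to 3 counts in ratios between libraries. Clustering used the Leiden method (2000 variable genes, 30 components, 15 neighbours, resolution 1) without BPI fold genes and CFTR. Doublets were kept, and the nuclei with the highest Scrublet scores, 0.8% per 1000 nuclei, were marked (178 wild type and 293 knockout, of which 8 and 6 were BPIFB nuclei) and left out in an alternative. Mature neurons were nuclei with 2 genes and 4 UMIs of ANO2, CNGA2, RTP1 and GNG13. Respiratory secretory nuclei were chosen likewise on SCGB3A1, SPDEF, AGR2 and TFF3, and sustentacular nuclei on CPM and CYP2F1. The ratios were tested on simulated data. Alternatives changed the rule, depth, doublets, scaling, weighting, count minimum and clustering.

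The genes named are the rule genes and labelled markers, CFTR, the 25 highest leading genes, the 10 highest and lowest between libraries, up to 4 per list with the most UMIs and those past 2-fold, and the markers, apart from some genes and 1 comparison kind that are not reported here. Genes of the 2 patterns and those compared inside the cluster were chosen after their values were seen. The members and all lists were chosen with earlier results of these data known.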

Additional observations from a re-analysis of the deposited data

How the results depend on the processing

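The share of wild type nuclei that met the rule went from 1.52% to 0.810% with nuclei thinned to 1000 UMIs and to 0.905% with only those in the cluster, and its log2 ratio between libraries from -0.23 to 0.33 when thinned and 0.22 in the cluster. The count of leading genes went from 38 to 73 when thinned and with a mean over nuclei, to 96 inside the cluster, and to 71 and 20 with 5 and 50 CPM added. All 25 named leading genes stayed at least 4-fold higher under every alternative except 50 CPM, where 7 did not. Between libraries, 608 genes higher and 806 lower became 88 and 80 when thinned, 309 and 286 inside the cluster, 230 and 414 with 50 UMIs required, and 1009 and 1227 with 10. The log2 ratio of CFTR was -0.87 when thinned, where 4 wild type UMIs stood against none and the value is a bound, and -5.17 inside the cluster. The share of wild type BPIFB nuclei in 1 cluster rose from 59.4% to 72.5% and 73.8% with 200 and 1000 genes required, 78.7% without marked doublets, 88.6% when thinned and 75.4% at resolution 0.5, and that of the knockout to 91.7% when thinned. Of the 15 lists, 9 had a median above that of all genes, and 4 inside the cluster. Changes of sign were counted only for genes past 2-fold over all BPIFB nuclei. Of these genes, log2 ratios changed sign inside the cluster for THSD7B (0.20), PURG (0.91), EBF1 (2.20), SPOCK1 (0.91), CFB (-0.67), ATP8 (0.33) and DDX58 (-0.48). DDX58 also changed without doublets (-0.14), and CYP2A19 (0.22), HEY1 (-0.093) and ND1 (0.075) when thinned. Of the gene values between libraries under the alternatives, 1274 stayed within their counting interval, 291 moved and 11, all of genes past 2-fold, changed sign. Genes under 2-fold that changed sign are among the other counts, such as GPR155 (0.52 over all BPIFB nuclei and -0.07 inside the cluster). Using only the nuclei in the cluster, for the share and for the 2 patterns, was chosen after seeing the data. Depth limits most genes under 20 UMIs. The cause of these changes was not tested. No paired analysis was possible because each genotype has 1 library.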
